A study of Mus musculus with 10 samples.

Results

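Complex I (NADH:ubiquinone oxidoreductase) subunit genes were taken as every gene whose symbol starts with Nduf but not with Ndufaf, the prefix of its assembly factors, which gave 38 of the 15075 genes in the expression table. Of these, 36 encode subunits of the enzyme. The other two are Ndufa4, now assigned to cytochrome c oxidase, and its paralog Ndufa4l2. The subunits that the mitochondrial genome encodes, and Ndufb1, were not analysed here.

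RNA was measured in interscapular brown fat (iBAT) of 5 Control and 5 AdCKO mice, with 1 polyadenylated RNA library per mouse. In AdCKO mice Adipoq-Cre deletes exon 4 of floxed Crls1, so adipocytes lose cardiolipin synthase 1, the enzyme that makes the inner-membrane lipid cardiolipin. Control mice were homozygous for the floxed allele and had no Cre, although their labels read wild-type, so both groups carried the floxed allele. All mice were C57BL/6, aged 20 weeks and housed at room temperature. Adipoq-Cre acts in white as well as brown adipocytes, and the RNA came from whole tissue with its blood vessels, immune and stromal cells. The comparison addresses how brown fat whose adipocytes lost Crls1 differs in its mRNA for the respiratory chain.

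Complex I is the entry point of the respiratory chain for electrons from NADH. Its peripheral arm reaches into the mitochondrial matrix, where the N module oxidises NADH at a flavin and passes electrons along iron-sulfur clusters to the Q module, which reduces ubiquinone. Its membrane arm, with a proximal and a distal part, pumps protons. A conserved catalytic core is surrounded by accessory (supernumerary) subunits, and all of the subunits studied here are made from nuclear genes. Brown adipocytes are packed with mitochondria, where the proton gradient that complex I helps to build is spent by uncoupling protein 1 to make heat.

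Sequence around the transcription start was examined because nuclear respiratory genes are known targets of a few transcription factors. A RefSeq window from 250 bases before to 50 after the start (GRCm38.p6) was found for 33 members. Members without a window included Ndufa2, Ndufa4l2, Ndufb9 and Ndufs1. Exact letters known for 4 factors were searched on both strands: AAGATGGC for YY1, GCGCATGC for NRF1, CCGGAAGT for ETS factors and TCAAGGTCA for estrogen-related receptors. The YY1 letters occurred in 7 of the 33 windows (21.2%), against 3.19% of 27025 genes with a window of that length. These 7 windows are printed because the match had the same strand and nearly the same place in all of them, beginning between 23 and 39 bases after the start. The capitals mark the searched letters, and coordinates are those of NCBIM37 (mm9), where each sequence was located by an exact match.
Ndufc1, chr3:51212837-51212866, minus strand: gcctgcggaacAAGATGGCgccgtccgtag
Ndufa9, chr6:126799115-126799144, minus strand: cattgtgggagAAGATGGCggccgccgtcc
Ndufa3, chr7:3568986-3569015, plus strand: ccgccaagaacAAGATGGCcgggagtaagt
Ndufs7, chr10:79712207-79712236, plus strand: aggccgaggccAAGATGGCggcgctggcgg
Ndufs6, chr13:73465881-73465908, minus strand: gggtcaccggcAAGATGGCggcggtgct
Ndufs4, chr13:115178253-115178278, minus strand: ttgcctacaggAAGATGGCggcggtc
Ndufb8, chr19:44629883-44629905, minus strand: cggagaaggtgAAGATGGCtgcc

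In all 7, the ATG inside the capitals is the annotated start codon, so these letters straddle the end of the 5′ UTR and the start of the coding sequence in the first coding exon. The median log2 fold change, AdCKO minus Control, was -1.02 over these 7 genes and -0.99 over the 26 members without the letters. The NRF1 letters were found in 3 windows (9.09%, against 3.05% of all genes), all upstream of the start. In the Ndufa11 window the letters lie on each strand at overlapping places, and the same-strand match is shown. Capitals mark the letters as they read on the strand of the gene.
Ndufa8, chr2:35904848-35904877, minus strand: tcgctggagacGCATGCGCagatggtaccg
Ndufa6, chr15:82184786-82184815, minus strand: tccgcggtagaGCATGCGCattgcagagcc
Ndufa11, chr17:56857114-56857143, plus strand: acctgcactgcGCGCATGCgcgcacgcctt

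The ETS letters occurred in 1 window, that of Ndufs3 (3.03%, against 4.31% of all genes), and the estrogen-related receptor letters in none (against 0.466%). These matches describe the letters only, and binding of the factors was not measured.

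In AdCKO iBAT, 37 of the 38 members were lower than in Control and 0 were higher, and the median log2 fold change was -1.0, that is, mRNA at about 50% of Control. Called means an adjusted p below 0.01 (limma on log2 of the value plus 1, Benjamini-Hochberg over 11244 genes with a mean of at least 10 in either group). With that rule 28.0% of all tested genes were lower and 25.6% were higher, and the median of all tested genes was -0.011. The value is the authors' normalized read number per kb of counted exon, so levels can be compared between genes. The groups did not overlap, with every AdCKO mouse below every Control mouse, for 34 of the 38 members, against 26.4% of all tested genes. A log2 fold change of -1 or less was reached by 19 of the 38, against 6.17% of all tested genes. Ndufa4l2 was the member that was not called. Under the alternative scaling that gives every library the same total, no member was called higher and all subunits of the enzyme kept a negative value except Ndufs5, at 0.019.

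**Figure D1:**
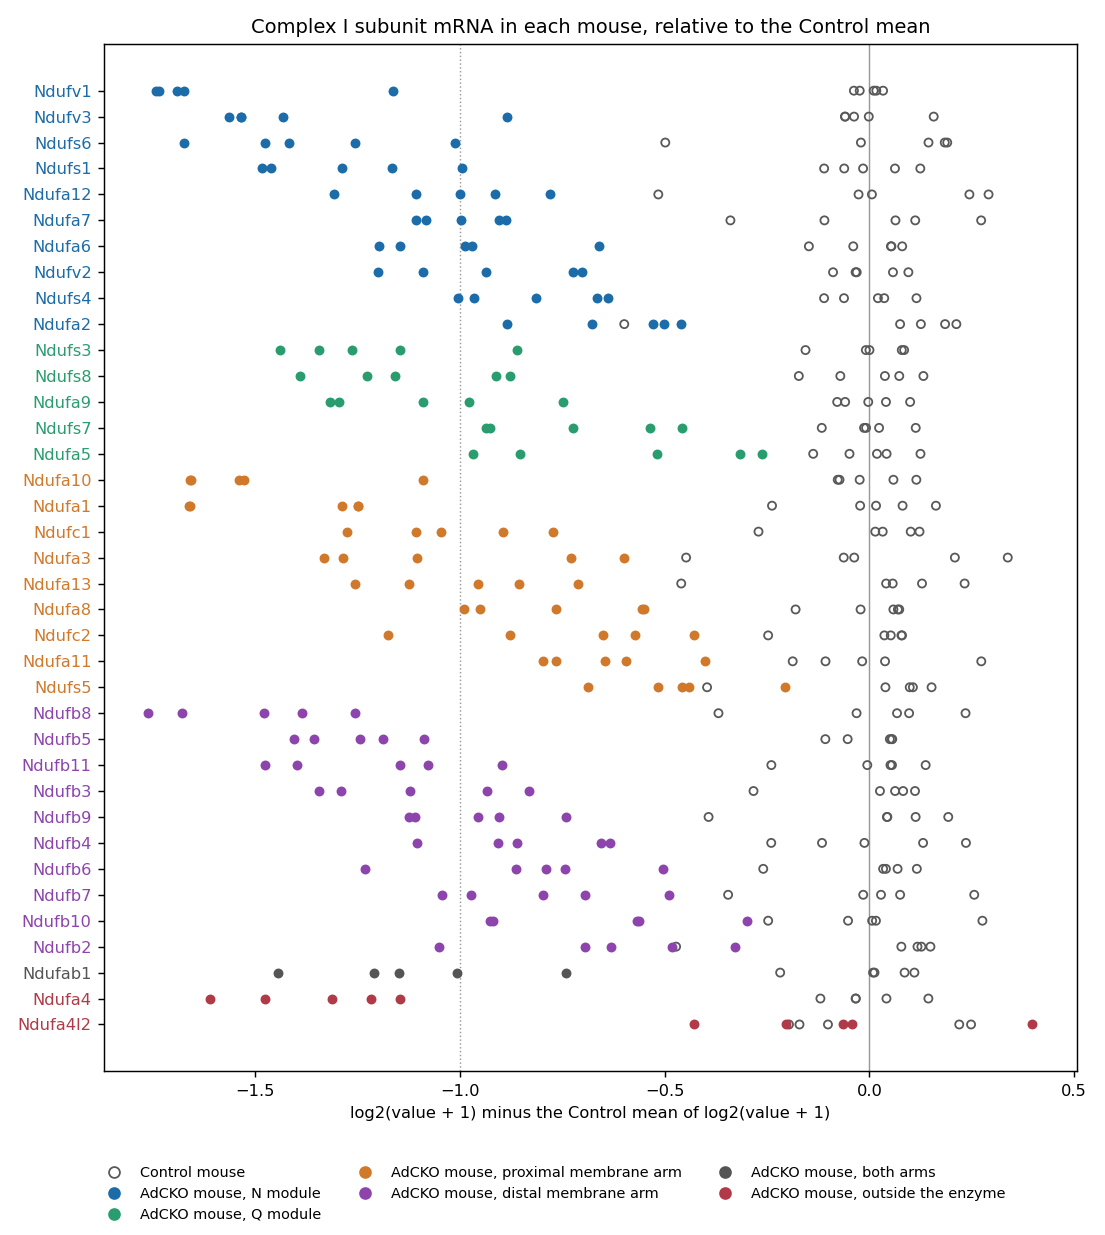
Values of 37 members in each mouse, as log2(value + 1) minus the Control mean, under the study's normalization (open circles Control, filled circles AdCKO, 5 mice each, coloured by structural position). The filled circles lie to the left of the open ones in 33 of the 37 rows drawn, and Ndufa4l2, at the foot, is the row where they mix around 0.

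The series as a whole gave 3152 genes lower and 2879 higher. With every library at the same total the split was 1098 lower and 6811 higher. Each Control library summed to between 7615403 and 8171138 normalized reads and each AdCKO library to between 5419800 and 5843024. Crls1 was at 1291, 927, 813, 1101 and 1169.8 in the Control mice and at 193, 195, 249, 208 and 242 in the AdCKO mice (log2 fold change -2.27, SE 0.13, limma adjusted p = 3.53e-08). Ucp1, the defining gene of brown fat, was present in both groups, with 36912 ± 8713 in the Control mice and 14069 ± 4478 in the AdCKO mice (SD, n = 5 each). Summed over 7 brown adipocyte markers the level was 58467 to 79773 in Control mice, against 17602 to 37599 in AdCKO mice, with 4 markers called lower (Ucp1, Cidea, Cox8b and Prdm16) and Ppargc1a called higher. The summed level of 7 general adipocyte markers was 171973 to 206265 in Control and 122989 to 139087 in AdCKO. Of these 7, 5 were called lower (2 with the same total in every library, where 1 was higher). Most of the sum was Fabp4, at 147241 ± 11857 in Control and 108235 ± 6258 in AdCKO, which was not called (limma adjusted p = 0.0205). Of 8 macrophage markers 8 were higher, with sums of 427 to 1179 in Control mice, against 6279 to 9059 in AdCKO mice, and 5 of 5 fibroblast markers were higher (799 to 1112 against 2971 to 4272). Of 5 endothelial markers 2 were higher (1181 to 1579 against 1295 to 1846). The 8 skeletal muscle markers summed to 99.9 to 128 in Control and to 6322, 23756, 148, 9155 and 133 in the 5 AdCKO mice, so 3 of the AdCKO libraries held muscle RNA, and 1 of the markers, Acta1, was called higher. No value in the table was 0. In whole tissue, fewer brown adipocytes and less subunit mRNA in each of them cannot be told apart, and the part of the other cell types in the results was not tested beyond the values given here.

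All 10 measured N module genes were lower, with log2 fold changes from -1.60 to -0.61 and a median of -1.01. Ndufv1, which binds NADH and the flavin, had the largest fall of all members under the study's normalization. With quantile normalization it was at -1.0, and Ndufs6 (-1.06), Ndufa1 (-1.05) and Ndufv3 (-1.03) fell more. Ndufv1 lies on chromosome 19 (mm9, 4007499 to 4012755, minus strand). Its values were 4746, 4822, 4589.5, 4767 and 4635 in the Control mice and 1409, 1477, 1459, 1415 and 2103 in the AdCKO mice. The Control mice were within a narrow band, and AdCKO replicate 5 stood above the other AdCKO mice and still far below Control. The change came to -1.60 on the log2 scale (SE 0.11, 95% interval -1.84 to -1.36, limma adjusted p = 1.45e-07), which left 33.4% of the Control mean.

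Ndufv2 and Ndufs1, the iron-sulfur partners of Ndufv1 in the N module, fell less. Ndufs1 was at 2383, 2163, 2095, 2025 and 2283 in Control and 782, 895, 974, 793 and 1097 in AdCKO (log2 fold change -1.28, SE 0.10, limma adjusted p = 3.95e-07). Ndufv2 was at 2490.3, 2723, 2495, 2397 and 2653 in Control and 1197, 1333, 1566, 1110.1 and 1544 in AdCKO (log2 fold change -0.93, SE 0.10, limma adjusted p = 6.42e-06). Neither gene's groups overlapped. The 95% intervals of Ndufv1 (-1.84 to -1.36) and Ndufv2 (-1.15 to -0.71) did not overlap either, although the difference between genes was not tested.

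The accessory subunits of the N module spanned a similar range. Ndufv3, a small subunit beside Ndufv1, fell by 1.39 on the log2 scale (SE 0.12), from 1873 ± 122 to 726 ± 163 (SD, n = 5 each). Ndufs6, a zinc-binding subunit, fell by 1.37 (SE 0.15), from 1479 ± 266 to 571 ± 101. Ndufa12, Ndufa7 and Ndufa6 lay close together at -1.02, -1.0 and -0.99. Ndufs4, whose loss in mice gives a Leigh-like encephalopathy, fell by 0.82 (SE 0.086), from 1008 ± 61.8 to 574 ± 66.3. At the low end was Ndufa2, a subunit with a thioredoxin-like fold, at 1085, 1904, 1793, 1731 and 1868 in Control and 889.5, 1194, 1139.7, 1027 and 1161 in AdCKO. The groups of Ndufa2 overlapped, because Control replicate 1 lay below 3 of the AdCKO mice, and its change was -0.61 (SE 0.15, limma adjusted p = 0.00321, exact permutation p = 0.032). Its exons share 26 bases with those of Tmco6 on the other strand, and whether the counting used strand is not given in the sources used here.

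All 6 Q module genes were lower, with a median log2 fold change of -1.10. Ndufs7, which carries the last iron-sulfur cluster before ubiquinone, was at 2109, 2244, 2056, 1914 and 2063 in Control and 1084, 1256, 1430.4, 1092 and 1510.5 in AdCKO. Its groups did not overlap, and AdCKO kept 61.4% of the Control mean (log2 fold change -0.72, SE 0.10, limma adjusted p = 5.65e-05). With the same total in every library it was no longer called (-0.23, adjusted p = 0.0400).

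Ndufs3, a core subunit without a cluster, was at 1915, 2254, 2263, 2134 and 2121 in Control and 839.9, 889, 963, 786 and 1174 in AdCKO (log2 fold change -1.21, SE 0.10). Ndufs8, a core subunit with iron-sulfur clusters, was at 1887, 2172, 1759, 2085 and 2035 in Control and 847, 887, 1054, 756 and 1079 in AdCKO (-1.11, SE 0.11). The groups of both genes were clearly apart. The accessory subunit Ndufa9, which binds a nucleotide cofactor, fell by 1.09 (SE 0.11), from 2075 ± 106 to 987 ± 165. Ndufa5 fell least in this module. Its values were 1420.1, 1608, 1510.1, 1703 and 1582 in Control and 798, 1089.6, 1303, 864 and 1254 in AdCKO, a spread among the AdCKO mice wide enough that the highest came near the lowest Control value. Ndufa5 changed by -0.58 on the log2 scale (SE 0.13, limma adjusted p = 0.00199), and it was -0.10 with the same total in every library (adjusted p = 0.480).

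Over the 7 nuclear genes of the catalytic core, all in the N and Q modules, the median was -1.21, and 5 of the 7 reached -1 or less. Over the 29 accessory subunits it was -0.99, and 13 reached -1 or less. The core genes ran from -1.60 to -0.72 and the accessory subunits from -1.51 to -0.46, so the ranges overlapped widely. In normalized reads, the 7 core genes took 0.390 to 0.401% of each Control library and 0.200 to 0.278% of each AdCKO library.

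All 9 proximal membrane arm genes were lower, with log2 fold changes from -1.49 to -0.46 and a median of -0.98. With the same total in every library 4 of the 9 were lower (median -0.50), and with quantile normalization 6 (median -0.57). Ndufa10, a matrix-facing subunit with a nucleoside kinase fold, was at 7132, 7414, 6736, 6510.3 and 6490.5 in Control and 2168, 2374, 2355, 2170.4 and 3217 in AdCKO. AdCKO replicate 5 was again the highest of its group, and the groups were far apart (log2 fold change -1.49, SE 0.11, limma adjusted p = 3.02e-07). Ndufa1, a small X-linked membrane subunit, fell by 1.42 (SE 0.11), from 2355 ± 237 to 883 ± 129.8. Ndufc1, Ndufa3 and Ndufa13, all membrane-bound, lay at -1.02, -1.01 and -0.98. Ndufa13 shares 375 exon bases with Tssk6 on the other strand.

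Ndufa8, a cysteine-rich subunit on the intermembrane space side, was at -0.76, Ndufc2 at -0.74 and Ndufa11 at -0.64. Ndufs5, also cysteine-rich and on that side, had the smallest fall of any called member. Its values were 356, 373, 385, 371 and 263 in Control and 255, 300.1, 242, 215 and 252 in AdCKO. Control replicate 5 fell among the AdCKO mice, and its change was -0.46 (SE 0.11, limma adjusted p = 0.00358, exact permutation p = 0.016). Its value rests on only 25 counted bases of 860 annotated exon bases, which is 6.57 to 9.64 normalized reads in Control and 5.37 to 7.50 in AdCKO. At so few reads, neither its level nor the size and SE of its change can be set firmly against those of the other subunits. Moderation of low values between samples would understate its fall. The sign of its change turned with the same total in every library (0.019).

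All 10 distal membrane arm genes, each named Ndufb, were lower, with log2 fold changes from -1.51 to -0.64 and a median of -0.90. With the same total in every library 6 of the 10 were lower (median -0.42), and with quantile normalization 5 (median -0.47). Ndufb8, a membrane-spanning subunit that is widely used as a marker of assembled complex I on blots, lies on chromosome 19 (mm9, 44624744 to 44629905, minus strand). It was at 6054, 9197, 7648, 8359 and 8190.2 in Control and 2442, 2805, 2990.2, 2307 and 3275 in AdCKO. Although the Control mice varied, the lowest of them was well above the highest AdCKO mouse (log2 fold change -1.51, SE 0.13, limma adjusted p = 8.87e-07). Ndufb5, a single-pass membrane subunit, had the smallest p of all members, with little spread between mice. Its level went from 2131 ± 110.3 in Control to 894 ± 79.9 in AdCKO (log2 fold change -1.26, SE 0.077, limma adjusted p = 7.07e-08). It shares 158 exon bases with Mrpl47 on the other strand, which was not called (-0.087, adjusted p = 0.599).

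The X-linked Ndufb11 fell by 1.20 (SE 0.12) and Ndufb3 by 1.10 (SE 0.12). Ndufb11 shares 117 exon bases with Rbm10 on the other strand, whose level was 52.1 ± 4.61 in Control and 38.1 ± 6.22 in AdCKO, far below that of Ndufb11 at 3424 ± 324 and 1502 ± 246. Ndufb9, a subunit that binds the acyl carrier protein Ndufab1, had the highest level of the enzyme subunits in both groups. It was at 5981, 8973, 8088, 8094 and 8491 in Control and 3641, 4195, 4049.6, 3604 and 4698 in AdCKO, with no overlap (log2 fold change -0.97, SE 0.12, limma adjusted p = 2.11e-05). Ndufb4 and Ndufb6 were both at -0.83 and Ndufb7, a cysteine-rich subunit, at -0.80. The lower end of the arm was Ndufb10, also cysteine-rich, at -0.65 (SE 0.13, and -0.047 with quantile normalization), and Ndufb2 at -0.64 (SE 0.15). For Ndufb2 the highest AdCKO mouse (1226) was above the lowest Control mouse (1110.3), so its groups overlapped (exact permutation p = 0.016). Ndufb2 shares 145 exon bases with Adck2, which lies on the same strand and was also lower (-0.74). The level of Adck2 was 88.4 ± 7.19 in Control and 52.6 ± 3.82 in AdCKO, far below that of Ndufb2 at 1559.7 ± 253 and 1003 ± 180.3.

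Ndufab1, the mitochondrial acyl carrier protein, is present in both arms and also serves fatty acid synthesis in mitochondria. It was at 1744, 2189, 2046, 2153 and 2041 in Control and 914, 1009, 876, 745 and 1213 in AdCKO (log2 fold change -1.11, SE 0.12, limma adjusted p = 5.52e-06).

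**Figure D2:**
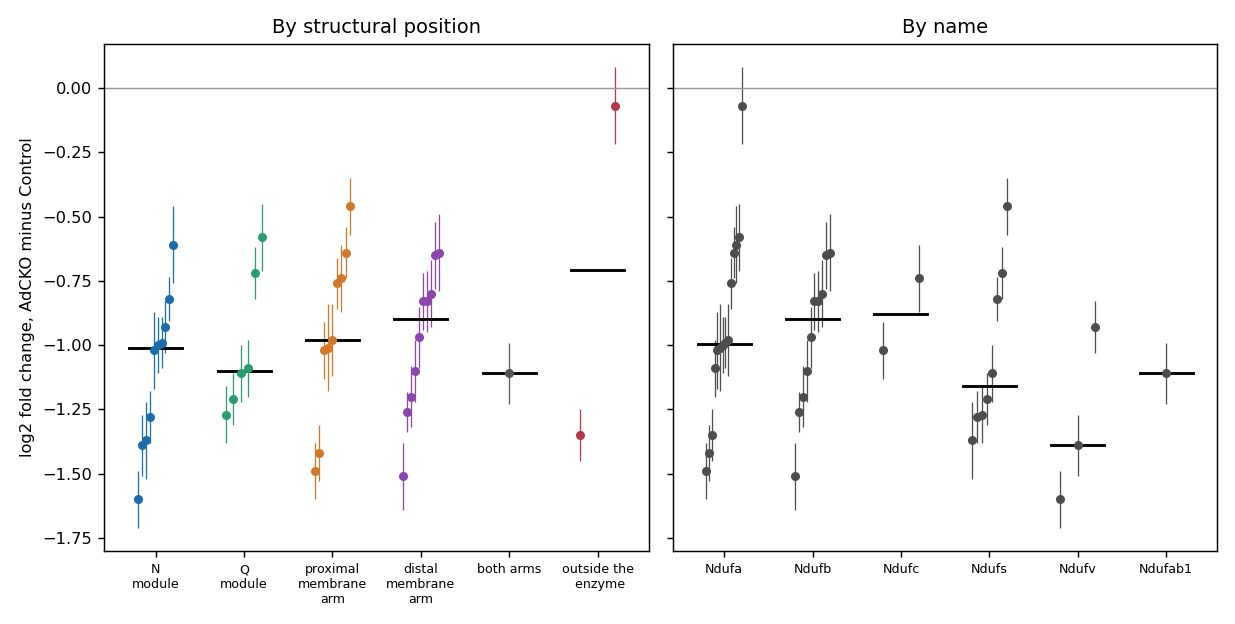
Log2 fold change of each member under the study's normalization, AdCKO minus Control, with its SE from limma, grouped by structural position (left) and by name (right); the black bar is the group median. The ranges of all arms overlap, and the medians of the 4 arms run from -1.10 (Q module) to -0.90 (distal membrane arm).

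By name, 13 of 14 Ndufa, 10 of 10 Ndufb, 2 of 2 Ndufc, 8 of 8 Ndufs and 3 of 3 Ndufv genes were lower. The medians were -0.99, -0.90, -0.88, -1.16 and -1.39. Within a name group the single genes spread widely, with Ndufb genes from -1.51 to -0.64 and Ndufs genes from -1.37 to -0.46, while the Ndufc pair lay at -1.02 and -0.74. No test between subgroups or arms was made, because the genes of an arm are measured in the same mice and are not replicates.

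Ndufa4 and Ndufa4l2 are paralogs that behaved differently. Ndufa4, first described with complex I and since assigned to cytochrome c oxidase, had the highest level of all members in Control. Its values were 8051, 8548, 8546, 9003 and 9665 in Control and 3147, 3520.2, 3760.1, 2866 and 3949 in AdCKO, with the groups far apart (log2 fold change -1.35, SE 0.10, limma adjusted p = 3.56e-07). Ndufa4l2, known as a hypoxia-induced gene, had the lowest. It was at 58.5, 74.8, 55.7, 73.3 and 54.7 in Control and 46.4, 54.4, 61.0, 60.0 and 83.1 in AdCKO, so the lowest and the highest of the 10 mice were both AdCKO. The change was -0.068 on the log2 scale (SE 0.15, 95% interval -0.39 to 0.25, limma adjusted p = 0.698), an interval that leaves room for a change of moderate size in either direction. With the same total in every library it was 0.41 (adjusted p = 0.0154), against a shift of 0.47 for the median of all tested genes. Ndufa4l2 shares 14 exon bases with Shmt2 on the other strand, which was higher in AdCKO (0.50).

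The ratio of the 2 genes in a mouse does not change when its whole library is multiplied by a common factor. Quantile normalization does not keep this ratio. With it the log2 fold changes lay closer together, at -0.54 for Ndufa4 and -0.15 for Ndufa4l2. The ratios that follow are those of the study's normalization. Ndufa4l2 was 0.566 to 0.875% of Ndufa4 in Control (median 0.727%) and 1.47 to 2.10% in AdCKO (median 1.62%). The log2 ratio was -7.08, -6.82, -7.24, -6.92 and -7.44 in the Control mice and -6.05, -5.99, -5.92, -5.55 and -5.55 in the AdCKO mice. Every AdCKO mouse was above every Control mouse, by 1.28 on average (p = 0.0079 in a two-sided exact permutation test, and 5 mice against 5 allow none smaller). A ratio shows unequal change and not which gene moved. How the deposited values of genes as low as Ndufa4l2 were moderated between samples is not given in the sources used here, so its fold change and this ratio carry that uncertainty.

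Levels of the 36 enzyme subunits per kb spanned 22.7-fold in Control, from Ndufs5 (349.8 ± 49.7) to Ndufb9 (7925 ± 1146), and 16.0-fold in AdCKO. Without Ndufs5, whose level rests on few reads, they spanned 14.7-fold in Control and 11.7-fold in AdCKO. The median level was 2134 in Control and 1062 in AdCKO. In Control, Ndufb9 was followed by Ndufb8 (7889.7 ± 1167) and Ndufa10 (6857 ± 405), 3 neighbours whose SD ranges overlap, and lower down came Ndufa6 (5162 ± 329) and Ndufv1 (4712 ± 96.7). Most of the others lay between 1479 and 3887, where neighbours in the order differed by less than the larger of their SDs, except Ndufa8 (2889 ± 208) and Ndufv2 (2552 ± 133). Ndufs4 (1008 ± 61.8), Ndufb4 (952 ± 125), Ndufa11 (541 ± 68.2) and Ndufs5 formed the low end. Subunits that occur once per enzyme thus differed several-fold in mRNA.

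**Figure D3:**
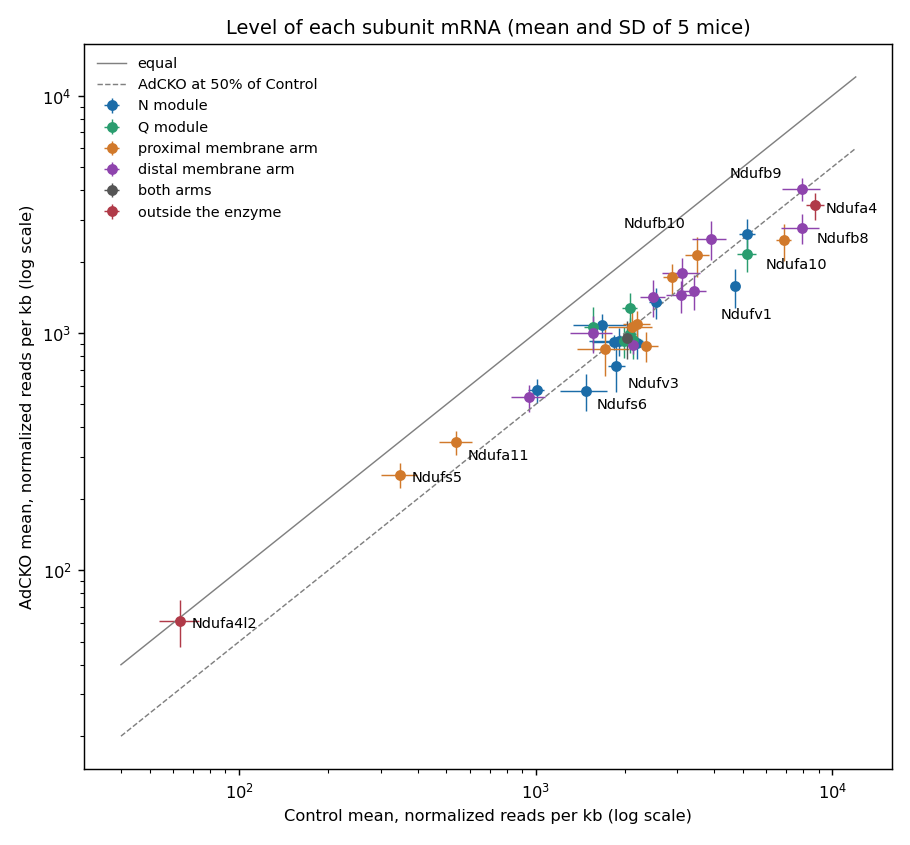
Mean level of each member in AdCKO against Control, in normalized reads per kb under the study's normalization, both axes on log scales, with the SD of 5 mice per group as bars. The points of the enzyme subunits scatter around the dashed line at 50% of Control, between 33.4% (Ndufv1) and 72.3% (Ndufs5), and Ndufa4l2 lies near the solid line of equal levels.

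The order of the levels was similar in the groups (Spearman rho 0.88 over 36 genes, which are not independent replicates and share the libraries). Some ranks moved. Among the 38 members, Ndufa1 went from the 16th highest level in Control to the 30th in AdCKO, and Ndufa2 from the 30th to the 18th. As a description, longer counted exons went with somewhat more negative fold changes (Spearman rho -0.33 over 36 genes, and -0.27 without Ndufs5). Without Control replicate 1 this rho was -0.26 over 36 genes. A higher Control level also went with more negative fold changes (Spearman rho -0.37, and -0.32 without Ndufs5), although the Control level enters the fold change.

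Mice of a group differed from each other in many subunits at once. For the 36 enzyme subunits, the median deviation from the Control mean on the log2 scale was -0.23, 0.12, -0.021, 0.047 and 0.047 in the Control mice and -1.12, -0.93, -0.93, -1.27 and -0.74 in the AdCKO mice. AdCKO replicate 4 was the lowest of its group in 27 of 38 members and replicate 5 the highest in 26. The summed brown adipocyte markers of the same AdCKO mice were 23284, 24034, 32518, 17602 and 37599, so the lowest and the highest AdCKO mouse were the same by either measure. Among the Control mice they were not, since the markers were lowest in replicate 3 (58467) and highest in replicate 4 (79773). As a share of all normalized reads, the 36 genes took 1.04 to 1.19% in Control and 0.619 to 0.852% in AdCKO, and these ranges did not overlap.

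The AdCKO mice with muscle markers near the Control level were replicates 3 and 5. Their summed brown adipocyte markers (32518 and 37599) were also the highest of the AdCKO group, so these traits cannot be told apart here. Compared with the 5 Control mice, these 2 mice alone gave 31 of 38 members lower (median -0.86), against 19.7% of all genes tested in that comparison. Of the called members, 6 lost their call there (Ndufa2, Ndufa3, Ndufa5, Ndufb2, Ndufb10 and Ndufs5), and each of these kept a negative value, from -0.66 to -0.29. Ndufa4l2 was at 0.18 (adjusted p = 0.391). All 7 core genes were called lower in these mice too.

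Control replicate 1 was the lowest Control mouse in 27 of the 38 members, and this went with the length of the counted exons. Among the 20 members under 700 counted bases it was the lowest in 19, with a median deviation from the Control mean of -0.28. Among the 10 members of 1000 bases or more the median deviation was -0.035. The 403 tested genes under 700 bases had a median of -0.18 in this library, so it was not particular to complex I. Without it, 37 members were again called lower (against 26.7% of all tested genes), the median was -1.09, and the groups did not overlap for 36 of the 38 (28.3% of all tested genes). Removing each library's trend with counted length, a choice made after seeing the data, also gave 37 lower, against 33.0% of all tested genes, and a median of -0.99.

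**Figure D4:**
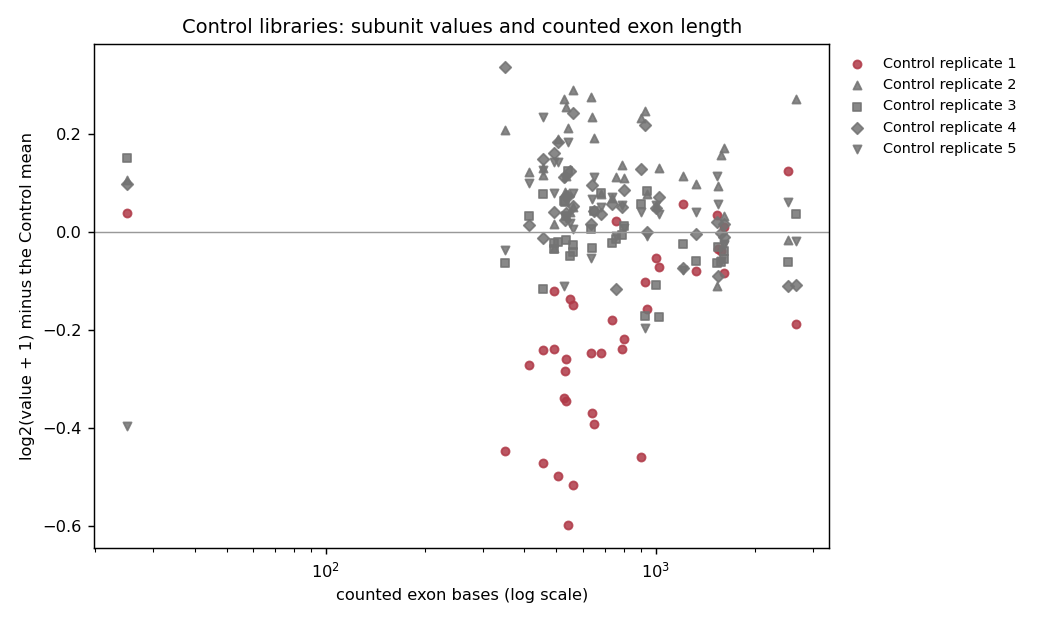
Each member's value in each Control library, as log2(value + 1) minus the Control mean, against its counted exon length in bases on a log scale. The points of Control replicate 1 (red) lie mostly below 0 under 700 bases and near 0 from 1000 bases on, and the point at 25 bases is Ndufs5.

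How far the subunits fell depended on how the libraries were scaled. With the same total in every library, 25 of 38 members were lower, 0 were higher and the median was -0.52, while 9.77% of all tested genes were lower and 60.6% higher. The median of all tested genes moved up by 0.47, and relative to it the members' median was -0.98. Multiplying a whole library by a common factor shifts all log2 fold changes nearly alike, so this relative value was nearly fixed in advance. With quantile normalization, which gives every library the same distribution, 26 of 38 were lower, 0 were higher and the median was -0.59, against 31.2% of all tested genes lower and 22.0% higher. The median of all tested genes moved by only -0.074 there, and relative to it the members' median was -0.50. In all 3 scalings 24 of the 38 members were called lower, among them 6 of the 7 core genes. The share of all tested genes lower in all 3 was not computed, and it cannot exceed the 9.77% lower with the same total. The order of the fold changes with quantile normalization was close to that of the study's normalization (Spearman rho 0.91 over 36 genes). With the same total the order was nearly fixed in advance, so it is no separate check. The 10 called under the study's normalization alone were Ndufs5, Ndufb6, Ndufa2, Ndufc2, Ndufb7, Ndufb2, Ndufa5, Ndufb10, Ndufa8 and Ndufs7.

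**Figure D5:**
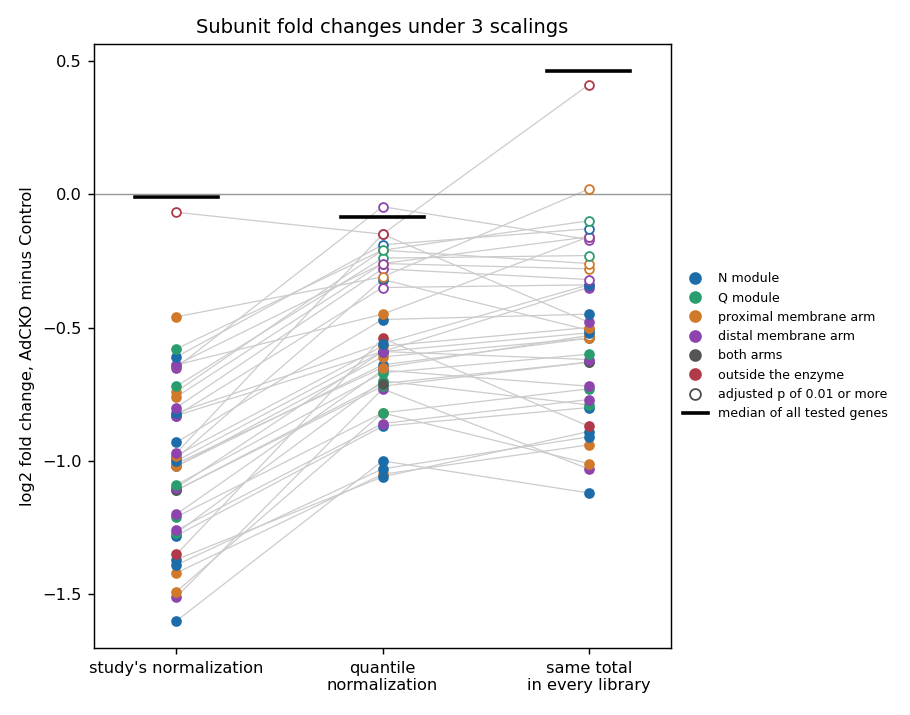
Log2 fold change of each member, AdCKO minus Control, under 3 scalings, with lines joining the same gene; open circles were not called and the black bar is the median of all tested genes. Under every scaling most members lie below the black bar, and with the same total Ndufs5 (0.019) and Ndufa4l2 (0.41) lie above 0.

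Genes that build complex I, and the other routes into and along the chain, were examined next to the subunits. Of 17 assembly factors, which join the subunits and then leave, 15 were lower and 0 higher, and their median was -0.82. Tmem70 fell from 903 ± 59.6 to 434 ± 20.4 (log2 fold change -1.06, SE 0.066), and Tmem186 and Acad9, both of the complex that builds the membrane arm, fell by 1.05 and 0.88. Ndufaf4, a factor of the early Q module, was at 193 ± 17.5 in Control and 202 ± 33.4 in AdCKO (0.053, limma adjusted p = 0.682). Tmem261 was at -0.36 (adjusted p = 0.0116).

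The 10 genes of other entries into the ubiquinone pool were all lower, with a median of -1.21. Gpd2, the mitochondrial glycerol phosphate dehydrogenase that is abundant in brown fat, fell by 1.87 (SE 0.13). Chdh, the choline dehydrogenase, fell by 1.75 (SE 0.08), and Etfdh, which takes electrons from fatty acid oxidation, by 1.52 (SE 0.11). Among them are the 4 genes of complex II, which were all lower, with Sdha at -1.61.

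Further along the chain, 9 of 9 complex III genes (median -1.14) and 12 of 12 complex IV genes (median -1.10) were lower. Of 15 ATP synthase genes 12 were lower and 1 higher (median -0.87). These lists lost more calls with quantile normalization, where 31.2% of all tested genes were lower. There 5 of 9 complex III genes (median -0.41) and 5 of 12 complex IV genes (median -0.22) were lower. So were 7 of 15 ATP synthase genes (median -0.30). Relative to the median of all tested genes, complex III was at -0.33, complex IV at -0.13 and ATP synthase at -0.21. Under the study's normalization the ATP synthase gene called higher was Atp5g1, for the membrane ring subunit c. It was at 19.4 ± 2.16 in Control and 76.9 ± 25.9 in AdCKO (log2 fold change 1.87, SE 0.21, limma adjusted p = 7.71e-06). Its paralogs Atp5g2 and Atp5g3 were at -0.038 and 0.029 and were not called. Atp5g3 had a far higher level than Atp5g1, at 2161 ± 120.5 in Control and 2227 ± 350.1 in AdCKO. Atp5g2 was low, at 13.4 ± 0.810 and 13.1 ± 1.75. With the same total, 3 of the 15 ATP synthase genes and 1 of the 17 assembly factors were higher, against 60.6% of all tested genes. The medians of the lists lie within the range of the single subunits of complex I, and no test between the lists was made.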

How the data were processed

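Brown fat RNA of 5 Control and 5 AdCKO mice was compared, grouped by the sample labels. The authors used STAR to align reads to mm9, iRNA-seq to count those on exons and DESeq2 to normalize the counts, which were then divided by counted exon length. The values the authors deposited are thus a signal in normalized reads per kb, not counts. Low values did not fall on steps of whole reads (at best 23.1 to 24.5% within 0.1 of a step, against 20% by chance). A count test was therefore not run. No value was 0, and low genes varied little between Control mice (Xirp2 0.757 ± 0.0359 and Myh13 1.17 ± 0.0406, SD, n = 5). Low values thus appear moderated between samples, which would understate the change and the spread of low genes. How this was done is not given in the sources used here. Depth is unknown, and the precision given is the spread between mice. The other deposited quantity used is the counted length of each gene. Fold changes and adjusted p-values from the authors' own comparison, and lists made with them, were not used.

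A pseudocount of 1 was added before log2, which also understates the change of low genes. Testing covered the 11244 genes whose mean reached 10 in either group and was done with limma 3.58.1 in R 4.3.3 (intensity trend, two-sided, Benjamini-Hochberg, threshold 0.01), which was tested on simulated data. For single values the test was an exact permutation test (two-sided). Figures were drawn with matplotlib 3.10.9. Members and gene lists were chosen with earlier results of these data known. Values per mouse are given for the uncalled member, the 3 largest and 3 smallest called changes, the extreme levels, the catalytic core and the paralogs Ndufa4 and Ndufa4l2. The values of 1 member are not reported here, though it counts in the totals. Other members are named by fold or mean, and Ndufab1 with values per mouse, a choice made after seeing the data. From other lists at most 3 genes with the smallest p are named, and members not called or called against the list. Windows of 250 bases before to 50 after the start came from RefSeq (GRCm38.p6) and were placed on NCBIM37 by exact match.

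Alternatives were a pseudocount of 0.1 or 10, no filter, the same total in every library, quantile normalization, limma without the trend, leaving out each library, a replicate block and a threshold of 0.05. Removal of the counted-length trend and the AdCKO libraries without muscle RNA alone were added after seeing the data.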

Additional observations from a re-analysis of the deposited data

Results flagged for a closer look

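Among the 74 groups of 5 mice formed by 37 members, 10 held a mouse whose gap to its nearest neighbour, as a share of the whole range of the group, was above Dixon's critical value of 0.71. Chance gives about 1 such group in 20, and the members share libraries, so these are not independent. Control replicate 1 was the lowest Control mouse for Ndufb2 (gap share 0.862, value 1110.3), Ndufc2 (0.855, value 2948), Ndufa2 (0.789, value 1085), Ndufb3 (0.759, value 2522) and Ndufb6 (0.757, value 2071), all under 700 counted bases. Control replicate 5 was the lowest for Ndufs5 (0.759, value 263), the member with the fewest reads. Control replicate 2 was the highest for Ndufv3 (0.747, value 2085). AdCKO replicate 5 was the highest AdCKO mouse for Ndufv1 (0.902, value 2103), Ndufv3 (0.840, value 1013) and Ndufa10 (0.803, value 3217). In each of these 3 genes it was still below every Control mouse, and its skeletal muscle markers were the lowest of the AdCKO group, at a sum of 133.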

How the results depend on the processing

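A pseudocount of 0.1 or 10, no filter, no trend, an adjusted p of 0.05, the length correction and the replicate block left the direction and the call of all 38 members as they were. With every library at the same total, genes lower came to 1098 and genes higher to 6811, and the numbers lower were 8 for Ndufa, 6 for Ndufb, 1 for Ndufc, 4 for the proximal arm, 6 for the distal arm and 9 for the assembly factors. Ndufs5 then turned to 0.019 and Ndufa4l2 to 0.41, while 11 further members lost their call. With quantile normalization, where 31.2% of all tested genes were lower, 11 members lost their call. The numbers lower were 5 for Ndufb, 1 for Ndufc and 5 for the distal arm. They were 5 for complex III, 5 for complex IV and 7 for ATP synthase. The cause was not tested. In the AdCKO libraries without muscle RNA alone, 6 members lost their call and Ndufa4l2 turned to 0.18.

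Leaving out each library in turn, genes lower ran from 2880 to 3066, genes higher from 2643 to 2887 and members lower from 35 to 37. The members that lost their call were Ndufs5, without Control replicate 2 (limma adjusted p = 0.0105), without Control replicate 4 (0.0104) or without AdCKO replicate 4 (0.0101), and Ndufa2, without Control replicate 2 (0.010) or without Control replicate 5 (0.0103). Ndufa4l2 ran from -0.19 to 0.022, the latter without AdCKO replicate 1. Assembly factors lower ran from 12 to 15, and the log2 ratio of Ndufa4l2 to Ndufa4 from 1.20 to 1.35.

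The replicate numbers did not pair the mice: deviations of same-numbered mice correlated at -0.07, 0.09, -0.17, -0.27 and 0.10. With the replicate number as a block, 37 members, 2838 genes lower and 2592 genes higher were called, and the ratio of Ndufa4l2 to Ndufa4 stayed at 1.28 with an exact permutation p of 0.062, the smallest that 5 pairs allow.

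The depth of the libraries is unknown, and no counting error is given for Ndufs5, with few reads, or Ndufa4l2, with a low level. Exons shared with another gene were not separated by strand.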
